A study of Mus musculus with 6 samples.

Results

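In the liver's group 1 innate lymphoid cells (ILCs), 1487 of the 107945 regions of the count table were taken as open in both cell types. They were more open in ILC1s than in natural killer (NK) cells. These regions, called ILC1-biased shared regions here, were chosen by their measured levels. Every NK cell library had to hold at least 2 CPM (the fragments of a region for every 1000000 counted in its library). Open in NK cells means this floor only, since peak calls per library and background levels were not examined. In addition, the lowest ILC1 library had to exceed the highest NK cell library by at least 2 times and by less than 8 times. The size and the direction of the difference in these 6 libraries are therefore set by the choice and are given as a description, without a test.

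Liver ILC1s and liver NK cells were each profiled in 3 libraries, from untreated wild-type male C57BL/6J mice aged 24 weeks, labelled as control in both cell types. Per the methods, both were sorted as NK1.1+ cells after other lineages were gated out, and the gates differed in CD49a, which is present on ILC1s. Both gates are printed as CD49b-negative, although CD49b is otherwise a marker of NK cells. The sources used here do not state whether libraries came from separate mice, so the spread between libraries may be partly technical. No gene name or position was used here, since the regions carry only a running number, so the identity of the sorted cells could not be checked against marker loci.

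NK cells and ILC1s are the cytotoxic and the tissue-resident arm of group 1 ILCs. Both respond with interferon gamma and share the transcription factor T-bet, whereas Eomes is the factor typical of NK cells and CD49a is a surface integrin typical of liver ILC1s. ATAC-seq (assay for transposase-accessible chromatin with sequencing) uses the transposase Tn5, which places sequencing adapters preferentially in DNA free of nucleosomes, to read where chromatin is open. Open regions are commonly promoters and enhancers. A region that is accessible in both cell types but to unequal extent differs in degree, not in presence, and in a bulk sample a higher level in each cell cannot be told apart from more cells with the region open.

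The libraries are named by their number of fragments in regions, from a (lowest) to c (highest). ILC1-a, ILC1-b and ILC1-c held 5687282, 6103178 and 6916979 fragments, and NK-a, NK-b and NK-c held 8526923, 11279588 and 12302602. Every NK cell library was deeper than every ILC1 library, so depth and cell type cannot be told apart by design. The number of regions, their share of the fragments and the comparisons of each library with the others of its cell type were also computed after all libraries were thinned to the smallest total. Libraries of the same cell type were not copies of each other, since the chi-square of their counts, per degree of freedom, was 1.42 at the least and 3.25 at the most. All 6 libraries were counted as separate samples.

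The ILC1-biased shared regions took 3.42%, 3.58% and 3.48% of the fragments of ILC1-a, ILC1-b and ILC1-c. In NK-a, NK-b and NK-c they took 0.980%, 1.02% and 1.12%. The means were 3.49% ± 0.0796 and 1.04% ± 0.0749 (SD, n = 3 each). Exact 95% binomial intervals of single libraries covered counting error only and were narrow at this depth, for example 1.12% to 1.13% in NK-c and 0.974% to 0.987% in NK-a. The median region held 17.8, 18.8 and 17.9 CPM in the ILC1 libraries and 4.69, 4.79 and 5.45 CPM in the NK cell libraries. In fragments, the median was 101, 115 and 124 in ILC1-a, ILC1-b and ILC1-c and 40, 54 and 67 in NK-a, NK-b and NK-c. The floor of 2 CPM corresponded to 18, 23 and 25 fragments in NK-a, NK-b and NK-c, so no region in the set rested on a handful of fragments. The plot of levels by library shows the distributions.

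**Figure D1:**
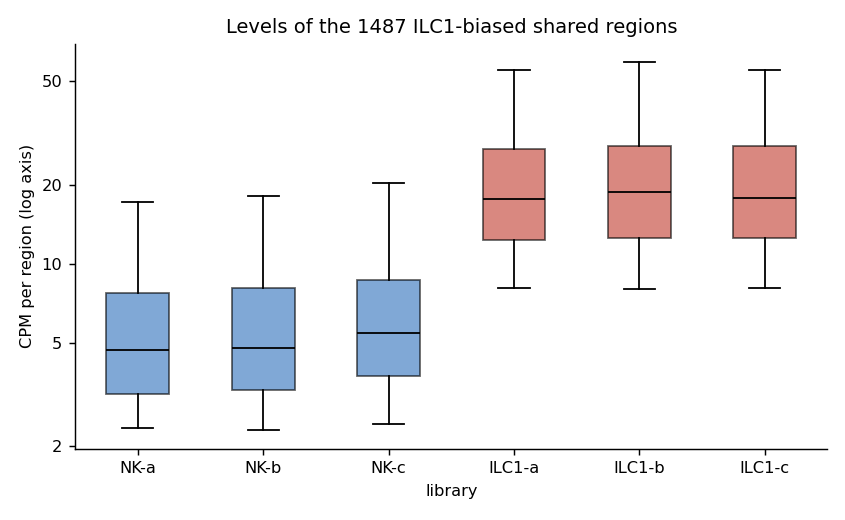
CPM per region on a log axis in the 6 libraries for the 1487 ILC1-biased shared regions (box, quartiles; line, median; whiskers, 5th and 95th percentiles). Medians were between 4.69 and 5.45 CPM in liver NK cells (blue) and between 17.8 and 18.8 CPM in liver ILC1s (red), a distance fixed by the choice of the regions.

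Most of these differences were moderate. The ratio of the lowest ILC1 to the highest NK cell level had a median of 2.55, and 1030 regions (69.3%) lay between 2 and 3. A further 287 lay between 3 and 4, 110 between 4 and 5, 39 between 5 and 6, and 21 between 6 and 8. The ratio of the group means, which does not rest on the extreme libraries, had a median of 3.29 and ranged from 2.11 to 10.6. Only 13 regions over the same NK cell floor had a ratio of 8 or more. By contrast, 6771 regions with a ratio of at least 2 missed the floor in at least 1 NK cell library. That count set no minimum ILC1 level and admitted regions with fragments in every ILC1 library and none in NK cells. Most regions with such a ratio thus missed the floor, but only 39208 of all 107945 regions met it.

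Among the ILC1-biased shared regions, the highest mean level in liver ILC1s was that of peak_15633. It measured 151, 145 and 130 CPM in ILC1-a, ILC1-b and ILC1-c against 19.4, 19.5 and 21.1 CPM in NK-a, NK-b and NK-c. This region stood far from both bounds, with a ratio of 6.19. The next, peak_9322, reached nearly the same level in ILC1s (139, 146 and 140 CPM) but was also the most open in NK cells (55.8, 59.5 and 64.3 CPM). Its ratio was 2.15. peak_32304 measured 143, 145 and 122 CPM in liver ILC1s and 35.9, 30.7 and 30.2 CPM in liver NK cells. peak_71771 measured 124, 145 and 142 CPM against 52.4, 46.0 and 44.5 CPM, and peak_53121 measured 111, 136 and 129 CPM against 37.4, 44.7 and 53.5 CPM. These 5 regions thus had similar levels in ILC1s, with means between 126 and 142 CPM, while their NK cell means ranged from 19.97 to 59.9 CPM.

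The regions with the highest ratios lay at low NK cell levels, which are the lower term of the ratio. peak_81530 had 30.2, 26.05 and 26.6 CPM in the ILC1 libraries and 2.81, 3.37 and 3.09 CPM in the NK cell libraries, a ratio of 7.73. peak_38399 had 31.8, 49.2 and 33.3 CPM against 3.87, 3.46 and 4.15 CPM, with ILC1-b well above the other ILC1 libraries. For peak_91013 the values were 18.5, 20.5 and 20.7 CPM against 2.46, 2.13 and 2.44 CPM. peak_70161 showed 29.2, 36.1 and 32.2 CPM against 2.23, 3.901 and 3.09 CPM, and peak_76285 showed 43.1, 41.9 and 42.9 CPM against 4.81, 5.67 and 5.53 CPM. In none of the 5 did the NK cell mean exceed 5.34 CPM. A typical region of the set was peak_81060, with 18.6, 16.1 and 17.5 CPM in liver ILC1s and 4.10, 4.79 and 6.34 CPM in liver NK cells. Close to the median were also peak_73388 (18.6 ± 2.27 against 4.91 ± 1.34 CPM) and peak_67966 (15.3 ± 2.10 against 4.99 ± 0.164 CPM; SD, n = 3 each).

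**Figure D2:**
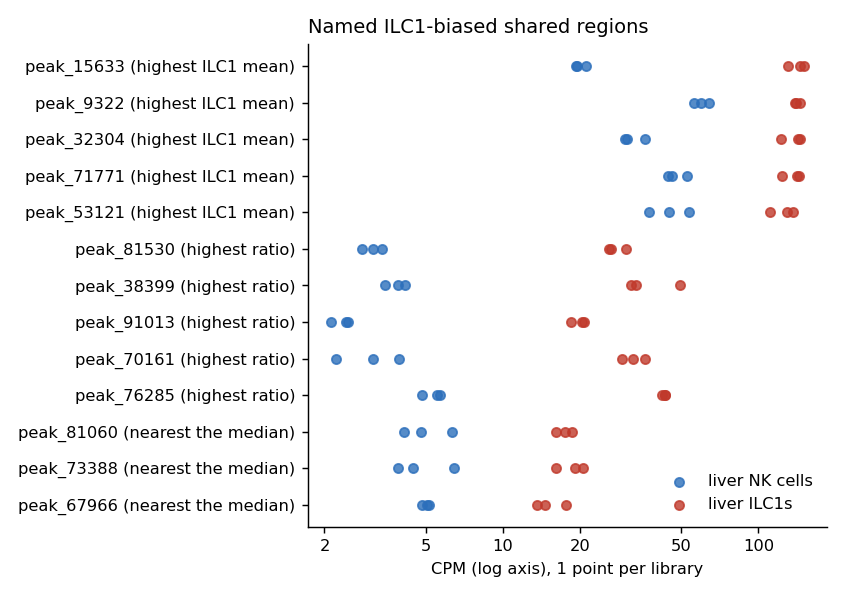
CPM on a log axis of 13 named ILC1-biased shared regions, 1 point per library (red, liver ILC1s; blue, liver NK cells). The 5 regions most open in ILC1s reach 111 to 151 CPM there, and the 5 with the highest ratios lie under 5.7 CPM in every NK cell library.

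The bounds of the set cut through a continuum. peak_44574 (ratio 2.0004) and peak_84321 (2.0004) were just inside the lower bound, and peak_107247 (1.9999) and peak_63486 (1.9992) were just outside it. Between 1.5 and 2 lay another 1657 regions over the floor. At the upper bound, peak_81530 (7.73) and peak_38399 (7.68) were inside and peak_98439 (8.11) and peak_26631 (8.22) outside. At the floor, peak_12051 and peak_101972 were inside, each with 2.03 CPM in NK-c, and peak_5620 and peak_6306 were outside, each with 1.99 CPM in NK-a. The highest ratio of a region over the floor was that of peak_6365, at 13.1, with 57.0 ± 3.39 CPM in liver ILC1s and 3.80 ± 0.550 CPM in liver NK cells (SD, n = 3 each).

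The quasi-likelihood test of edgeR, fitted over all 106376 regions with a fragment, called a region when its adjusted p-value was below 0.05 and its levels differed more than 1.5-fold. It called 15.9% of all tested regions and 12.8% of those over the NK cell floor as more accessible in liver ILC1s. All 1487 ILC1-biased shared regions were called, which the way they were chosen makes nearly certain, and nothing is read from this count. With DESeq2, which called 15.5% of the regions it tested, the count was also 1487. Complete separation of the libraries, with all ILC1 libraries above all NK cell libraries, is likewise part of the choice, and it was seen in 26.1% of the 39208 regions over the NK cell floor. The median log2 fold change of the ILC1-biased shared regions was 1.64, with a range from 1.01 to 3.31, against a median of 0.02 over all tested regions. They made up 8.79% of all regions called in this direction and 29.6% of those over the NK cell floor. The other called regions over the floor mostly had a ratio under 2 (3531 regions).

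The share of regions that met the rule fell with the NK cell level. That level is also the lower term of the ratio, so this fall is partly built into the rule and is only described. Among regions with a mean of 2 to 5 CPM in liver NK cells, 746 of 10313 met it (7.23%, exact 95% binomial interval 6.74% to 7.75%). The share was 5.67% from 5 to 10 CPM, 3.01% from 10 to 20 CPM and 0.676% from 20 to 50 CPM. Of the 5661 regions at 50 CPM or more, only 2 met it (0.0353%, interval 0.00428% to 0.128%). One of these is peak_9322. The median ratio of the ILC1-biased shared regions also fell along these steps, from 2.73 to 2.10. The region with the highest ILC1 mean, peak_15633, belonged to the step from 10 to 20 CPM, with means of 142 CPM in liver ILC1s and 19.97 CPM in liver NK cells.

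Exchanging the cell types in the rule gave 1066 regions, the NK-biased shared regions. Their share of the fragments was 2.95% ± 0.0860 in NK cell libraries and 0.795% ± 0.00945 in ILC1 libraries (SD, n = 3 each). The share that met the rule fell with the level in the less open cell type here too, from 6.15% at 2 to 5 CPM to 0.0357% at 50 CPM or more. Here too that level is the lower term of the ratio. The ILC1-biased share was higher at 5 to 10 CPM (5.67%, interval 5.19% to 6.18%) than the NK-biased share (3.96%, interval 3.54% to 4.41%), and both were alike at 20 to 50 CPM (0.676% and 0.687%). Ratios from 6 to 8 were reached by 1.41% of the ILC1-biased and by 4.97% of the NK-biased shared regions. The intervals cover counting of regions, which are not independent replicates, and the shallower libraries are all on one side of both comparisons, so none of these differences was tested.

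**Figure D3:**
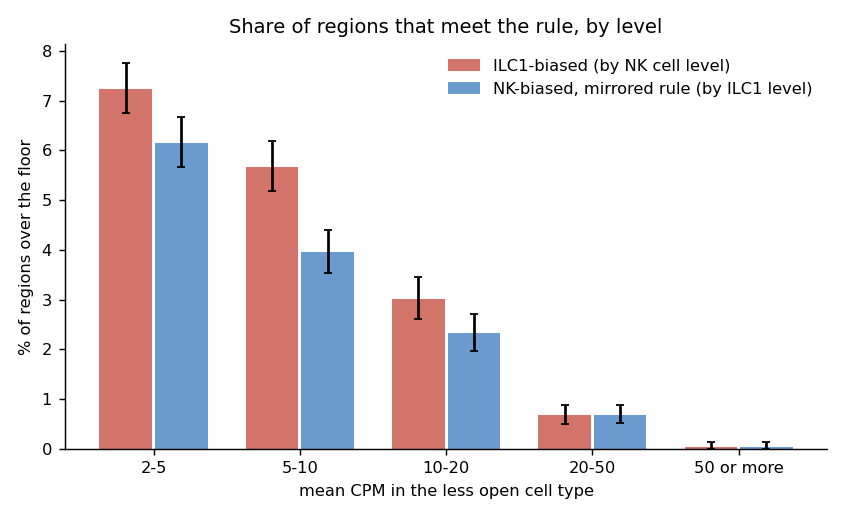
Percent of the regions over the floor of 2 CPM that met the rule, by mean CPM in the less open cell type (red, ILC1-biased; blue, NK-biased, with the cell types exchanged; bars, exact 95% binomial intervals for counting of regions). Both shares fall with the level, which is itself part of the rule, from 7.23% and 6.15% at 2 to 5 CPM to under 0.04% at 50 CPM or more.

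The difference was also read in libraries left out when the rule was applied. Peaks were called in every library, and the rule was set with earlier results of these data known. The libraries left out were therefore not independent of the choice. The rule was applied to 2 libraries of each cell type, and the ratio was then read in the remaining ILC1 and the remaining NK cell library, in all 9 ways. Between 1874 and 2264 regions were chosen in this manner. Between 99.2% and 100% of them were more open in the held-out ILC1 library than in the held-out NK cell library. The ratio was 2 or more in 87.4% ± 6.78 (SD over the 9 ways, which share libraries), against 6.88% to 10.7% of all regions over the floor in the same pairs. The median held-out ratio was between 2.54 and 3.39, and that of all regions over the floor was between 0.926 and 0.959. No test is possible with 1 library against 1.

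The held-out values depended on 1 library. With NK-c held out, 75.8%, 78.6% and 81.3% of the chosen regions kept a ratio of 2 or more against ILC1-a, ILC1-b and ILC1-c. With NK-a or NK-b held out the range was 90.1% to 93.5%.

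**Figure D4:**
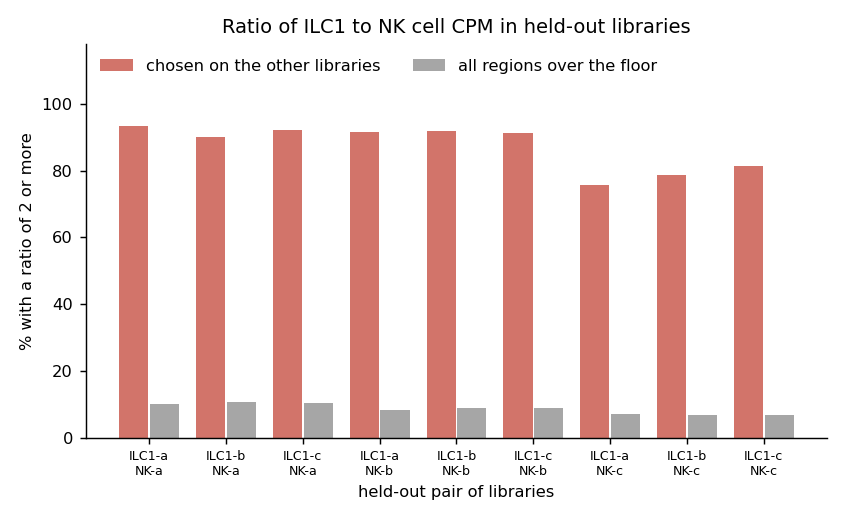
Percent of regions with an ILC1 to NK cell ratio of 2 or more in a pair of libraries left out when the rule was applied (red), beside all regions over the floor in the same pair (grey). The 3 pairs with NK-c lie between 75.8% and 81.3%, below the other 6 pairs, at 90.1% to 93.5%.

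NK-c stood apart from the other NK cell libraries across the ILC1-biased shared regions. It was the highest NK cell library in 870 of them (58.5%), compared with 39.9% of all regions over the floor. NK-a was the highest in 318 and NK-b in 299. When the regions were chosen without NK-c, its level was 1.18 times the mean of NK-a and NK-b in the median of 2004 regions. The corresponding value was 0.907 for NK-a and 0.963 for NK-b, each in regions chosen without it. Over all regions above the floor, the values of NK-c, NK-a and NK-b were 1.02, 0.951 and 1.00. After thinning to equal depth, NK-c alone was the highest in 49.4% of the ILC1-biased shared regions, NK-a in 21.5% and NK-b in 22.4%, with ties in 6.79%, and NK-c held out from the choice measured 1.17 times the other NK cell libraries. In the NK-biased shared regions NK-c, again held out, measured 1.01 times the others, against 1.04 over all regions above the ILC1 floor. The 636 regions with a ratio of 8 or more at any NK cell level summed to 230, 236 and 266 CPM in NK-a, NK-b and NK-c, again highest in NK-c, against 4214 to 4460 CPM in the ILC1 libraries. What set NK-c apart was not tested. The 3 regions with the largest spread between NK cell libraries were all highest in NK-c and lowest in NK-a. Of these, peak_37977 measured 3.05 and 3.10 CPM in NK-a and NK-b but 7.80 CPM in NK-c, with 29.0, 24.7 and 30.6 CPM in the ILC1 libraries.

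In the other two of these regions, NK-b lay nearer to NK-c. peak_92368 measured 2.46, 7.004 and 7.48 CPM in NK-a, NK-b and NK-c, the largest spread of the set at 3.04 times. peak_6028 measured 2.11, 4.17 and 5.36 CPM. In liver ILC1s, these regions measured 16.3 to 19.5 CPM and 16.7 to 25.9 CPM. The ratio of peak_92368 was 2.18, below the median of the set. The median spread, the highest over the lowest library, was 1.31 times between NK cell libraries and 1.19 times between ILC1 libraries over all ILC1-biased shared regions. Over all regions above the NK cell floor it was 1.22 times and 1.26 times. The rule uses the extreme libraries of both cell types, so these spreads are a description.

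Among the ILC1 libraries, ILC1-b was the highest in 666 ILC1-biased shared regions (44.8%), ILC1-c in 460 and ILC1-a in 361. Over all regions above the NK cell floor, ILC1-b was the highest in 35.6%. Held out from the choice, its level was 1.01 times the mean of the other ILC1 libraries, against 0.946 for ILC1-a and 0.975 for ILC1-c. The regions with the largest spread between ILC1 libraries included both directions of ILC1-b. peak_5555 measured 16.9, 26.9 and 12.9 CPM in ILC1-a, ILC1-b and ILC1-c, and peak_97215 measured 8.44, 17.0 and 10.3 CPM, both highest in ILC1-b. peak_72077 measured 11.3, 5.90 and 9.98 CPM and was lowest in ILC1-b. All 3 had NK cell means between 2.73 and 4.53 CPM.

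The regions next to an ILC1-biased shared region in the running number were measured in the same libraries, and each had itself been placed inside or outside the set by the rule. The sources used here do not say what order the numbers follow. The log2 fold changes of regions 1 number apart correlated with Pearson's r = 0.27 across the table, and those 100 numbers apart with r = -0.0012, so close numbers were more alike. All pairs share the same 6 libraries, and the coefficients are descriptive.

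Regions numbered directly before or after an ILC1-biased shared region were themselves shifted towards ILC1s. Of the 2974 adjacent positions, 272 (9.15%) held another ILC1-biased shared region, while these regions made up 1.38% of the table. The 2619 adjacent regions outside the set with a fragment had a median log2 fold change of 0.61, against 0.02 over all tested regions. Of these, 38.9% were called towards ILC1s and 6.34% towards NK cells, where the test called 15.9% and 15.6% of all regions. Among the 1114 of these adjacent regions that also met the NK cell floor the median was 0.19, against -0.16 over all regions above the floor. The floor is itself set by NK cell levels, and the adjacent regions left out as part of the set all met it, so the medians with and without the floor cannot be compared directly. Without the floor, the median was similar on both sides, at 0.65 towards lower and 0.59 towards higher numbers.

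The shift faded with distance in the running number. The median log2 fold change of regions outside the set was 0.51 at a distance of 2, 0.42 at 3, 0.30 at 5, 0.20 at 10 and 0.11 at 20, and at a distance of 50 it was 0.01. The share called more accessible in liver ILC1s fell from 38.9% at a distance of 1 to 20.7% at 10 and 15.5% at 50. Around the NK-biased shared regions, the adjacent regions had a median of -0.60, and the values returned to 0.00 at a distance of 50. Both series rest on the same 6 libraries.

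**Figure D5:**
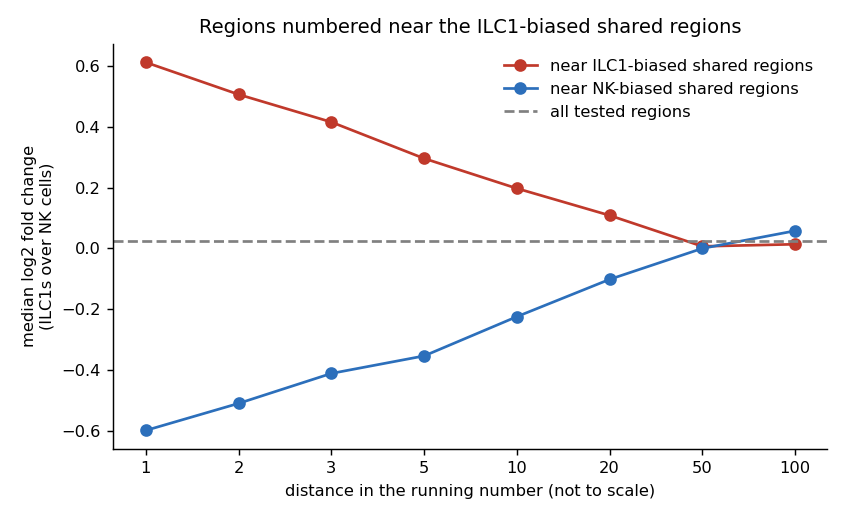
Median log2 fold change (liver ILC1s over liver NK cells) of regions at a given distance in the running number from ILC1-biased (red) and NK-biased (blue) shared regions, which are themselves left out; the dashed line is the median of all tested regions. The medians run from 0.61 and -0.60 at a distance of 1 to 0.01 and 0.00 at 50.

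The more strongly biased a region was, the further its neighbours were shifted. Next to the 1030 regions with a ratio of 2 to 3, adjacent regions outside the set had a median log2 fold change of 0.52, and 35.2% were called more accessible in liver ILC1s. Next to the 287 regions with a ratio of 3 to 4 the median was 0.84 (46.2% called), and next to the 170 regions with a ratio of 4 to 8 it was 1.13 (53.9% called). The level of the region itself made less difference, with medians of 0.59 next to regions under 5 CPM in liver NK cells and 0.64 next to the others. The difference between these classes was not tested.

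Another ILC1-biased shared region stood at an adjacent number for 255 regions (17.1%), in 105 runs of 2, 11 runs of 3 and 3 runs of 4. The remaining 1232 stood alone, and for these the calls of both adjacent regions were counted, since a call next to another member of the set is fixed by the choice. In 203 of them (16.5%) both adjacent regions were called more accessible in liver ILC1s, compared with 3.24% of the 37839 regions over the NK cell floor that had no ILC1-biased shared region beside them. In 526 (42.7%) 1 was called, against 21.0%, and in 503 (40.8%) neither was, against 75.8%.

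The 3 longest runs differed in level and in their flanks. In the first, peak_38455 to peak_38458, mean levels in liver ILC1s were 25.3, 13.3, 38.8 and 30.4 CPM against 7.47, 3.12, 9.65 and 6.22 CPM in liver NK cells. Its flanks differed from one another. peak_38454 was low in both cell types (2.61 ± 0.699 and 1.37 ± 0.353 CPM, log2 fold change 0.90), and peak_38459 was lower in ILC1s (2.10 ± 1.46 CPM) than in NK cells (4.61 ± 2.46 CPM; SD, n = 3 each), with a log2 fold change of -1.28.

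The second run, peak_58173 to peak_58176, held 2 stronger regions between weaker ones, with 11.98, 53.8, 48.2 and 15.3 CPM in liver ILC1s and 2.97, 17.2, 19.1 and 4.39 CPM in liver NK cells. Its flanks peak_58172 and peak_58177 missed the floor but were also called more accessible in liver ILC1s, with log2 fold changes of 1.97 and 1.54. In the third, peak_71985 to peak_71988, the levels were 11.9, 10.3, 28.2 and 13.8 CPM in liver ILC1s against 3.14, 3.38, 7.01 and 2.63 CPM in liver NK cells. The region after it, peak_71989, measured 17.8, 17.4 and 17.3 CPM in the ILC1 libraries and 2.46, 1.95 and 2.44 CPM in the NK cell libraries, and was outside the set by the floor in NK-b alone. The region before it, peak_71984, was open alike in both cell types (log2 fold change -0.05), at 36.2 ± 3.74 CPM in ILC1s and 35.96 ± 2.64 CPM in NK cells (SD, n = 3 each), so that the run ended there at an unshifted region.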

How the data were processed

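ATAC-seq fragments were counted in 6 libraries, 3 of each cell type. Per the methods, the authors trimmed reads (Trimmomatic), aligned them to GRCm38 (Bowtie2), filtered out fragments that were of low quality, duplicated, mitochondrial or in blacklisted stretches, called peaks per library (MACS), merged them (BEDtools) and counted fragments (featureCounts). The deposited values are raw counts per merged region, and no column was left out. Duplicates were removed by position, so strongly open regions may be understated, and the shift for the Tn5 offset is not given in the sources used here. Columns name the cell type only and were not assigned to numbered samples.

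CPM used library totals over all regions. Fold changes, liver ILC1s over liver NK cells, came from edgeR 4.0.16 in R 4.3.3 (TMM, estimateDisp, glmQLFit with legacy = FALSE, glmQLFTest, all 6 libraries in 1 fit, Benjamini-Hochberg adjustment over regions with a fragment). The fit was also run on simulated counts with known changes and the same dispersion for every region, and nothing is read from that run. DESeq2 1.42.0 and limma 3.58.1 (loess offsets) served as alternatives. The regions and the rules were chosen with earlier results of these data known. Named regions were the 5 with the highest ILC1 mean, the 5 with the highest ratio, the 3 nearest the medians, those nearest each bound, the longest runs and the 3 with the largest spread in each cell type. The flanks of the runs and peak_6365 were added after values were seen. Since regions carry no position, no sequence, annotation or gene was analysed here.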

Additional observations from a re-analysis of the deposited data

How the results depend on the processing

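The number of ILC1-biased shared regions, 1487, followed its bounds: it was 2337 with a floor of 1 CPM, 607 with a floor of 5 CPM, 3144 with a lower bound of 1.5, 457 with a lower bound of 3, and 2830 when group means replaced the extreme libraries. Scaling moved it less, to 1339 with TMM, 1426 with the size factors of DESeq2 and 1379 after thinning, and leaving out each library gave 1656 to 2004, the highest without NK-c. TMM retained 88.4% of the regions and thinning 80.3%. The 15 other fits called from 7481 regions (at least 10 counts in every library) to 17954 regions (library totals alone) as more accessible in liver ILC1s. All 1487 ILC1-biased shared regions were among them in each fit, which the way they were chosen makes nearly certain. Their median log2 fold change was between 1.61 and 1.70 over the scalings and the fits without a library. After thinning and renewed choice, their share of fragments in liver ILC1s was 3.32%, against 3.49%. With the held-out pairs scaled by TMM, 84.5% of regions had a ratio of 2 or more, against 87.4%. The median log2 fold change of adjacent regions, 0.61, was 0.19 among those over the floor and 0.67 with library totals alone. The columns do not carry the replicate numbers of the labels, but both cell types share the same column suffixes. With the suffix as a replicate block, 15266 regions of the table were called more accessible in liver ILC1s, against 16918 without it. All 1487 were again among them. The deviations of libraries with the same suffix correlated with r = -0.14, -0.15 and -0.081 over the regions above the floor. The other pairs ran from 0.00023 to 0.13. Deviations from the mean of 3 libraries constrain one another, so these values cannot decide whether libraries with the same suffix belong together. The suffix block, the legacy fit of edgeR and the neighbours without NK-c were chosen after seeing the data.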
